A study of Mus musculus with 4 samples.

Results

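Ribosome biogenesis factors are proteins, most of them nucleolar, that make ribosomes without being part of the finished particle. The 34 genes described here were taken from a list of 35 names of small nucleolar ribonucleoproteins (snoRNPs), assembly factors of both subunits and RNA polymerase I. A name was used where a probe set of the array carried that gene symbol alone. That holds for every name but Mrto4, and the 18193 genes of the whole array were found in the same way. The cells were mouse osteoblasts, grown to confluence and then starved of serum. Per the labels they lacked the IGF-1 receptor, although the genotype entry reads IGF-1 null. The 4 groups, all of this genotype, were a control, labelled 0 h, and cells that had spent 6, 12 or 24 h in 10 nM insulin, and each group is 1 array. There are therefore no replicates: no difference below carries a test, and precision is limited by having single arrays. No later control array was analysed here, so insulin and time in culture cannot be told apart, nor can either be told apart from any difference between the 0 h cells themselves and the insulin cells.

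The nucleolus builds ribosomes in steps. RNA polymerase I copies one long precursor rRNA. Box C/D snoRNPs guide ribose methylation of it, box H/ACA snoRNPs guide the change of uridine to pseudouridine, and assembly factors cut, fold and package it into a small and a large subunit. In many cells growth factors, insulin among them, raise the output of this line through mTOR signalling and the transcription factor Myc.

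The control array stood apart from the insulin arrays in more than these genes. Whether its cells were of the same stock as those of the insulin arrays was not tested, which bears on every difference from 0 h given here. Xist, the transcript that coats an inactive X, had intensities of 109, 1636, 1278 and 1463 at 0, 6, 12 and 24 h, and the Y-linked Eif2s3y had 12.2, 295, 305 and 326. Over 20 chromosomes, the median log2 difference between the 24 h and the 0 h array ran between -0.27 on chromosome 8 and 0.32 on chromosome 4. Between the 24 h and the 6 h array it ran between -0.0159 and 0.0124. Of 9 osteoblast markers 6 were measured, and all 6 had their lowest value at 0 h. Sparc, Col1a1 and Col1a2 were bright on every array, although Col1a1 had 13802, 21001, 23827 and 23754.5. Alpl had 61.5, 523, 919.7 and 1139.5 and Sp7 had 60.8, 125, 161 and 213. Ibsp had 202, 8849, 11705.5 and 13146.9. Its log2 differences from 0 h, 5.45, 5.86 and 6.02, were the largest of the markers above the brightness filter. All measured macrophage markers had a higher intensity at 24 h than at 0 h, and 6 of 6 together summed to 533, 4766, 5946 and 6729. Of 4 adipocyte markers 3 were measured and summed to 711, 2413, 3789.7 and 4999.6. The 4 skeletal muscle markers summed to 289, 1842, 1931 and 1769, of which Acta1 alone had 130.2, 1712, 1802 and 1626. The 4 endothelial markers summed to 193, 225, 192 and 206. Itgam among the macrophage genes and Lep among the adipocyte genes were below the brightness filter on average, as was Ptprc. The same held for 3 muscle markers (Myod1, Myog and Ckm) and 3 endothelial markers (Pecam1, Cdh5 and Tek). The part of these differences in the values below was not tested. In such bulk RNA, fewer cells of a type and less RNA per cell cannot be told apart. Differences between insulin arrays, which leave the 0 h array out, are therefore given as well.

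Compared with the control, the factors were mostly lower with insulin. The median log2 difference over the 34 genes was -0.31, -0.34 and -0.41 at 6, 12 and 24 h, while the median over all 11661 genes above the brightness filter was 0.00584, 0.0325 and -0.000118. At least 1.5-fold lower were 9, 11 and 13 of the 34, beside 12.8%, 13.3% and 13.3% of all genes. At least 1.5-fold higher were 0, 1 and 0, beside 18.6%, 20.5% and 19.5% of all genes. Lower by any amount were 24, 27 and 29 of 34, against 49.4%, 47.4% and 50.0% of all genes. The filter, the median intensity of all non-control probe sets (66.2), removed none of the 34, of which Rrp12 was the dimmest with a mean of 148. The 3 comparisons share the 0 h array, so they are not independent of one another.

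**Figure D1:**
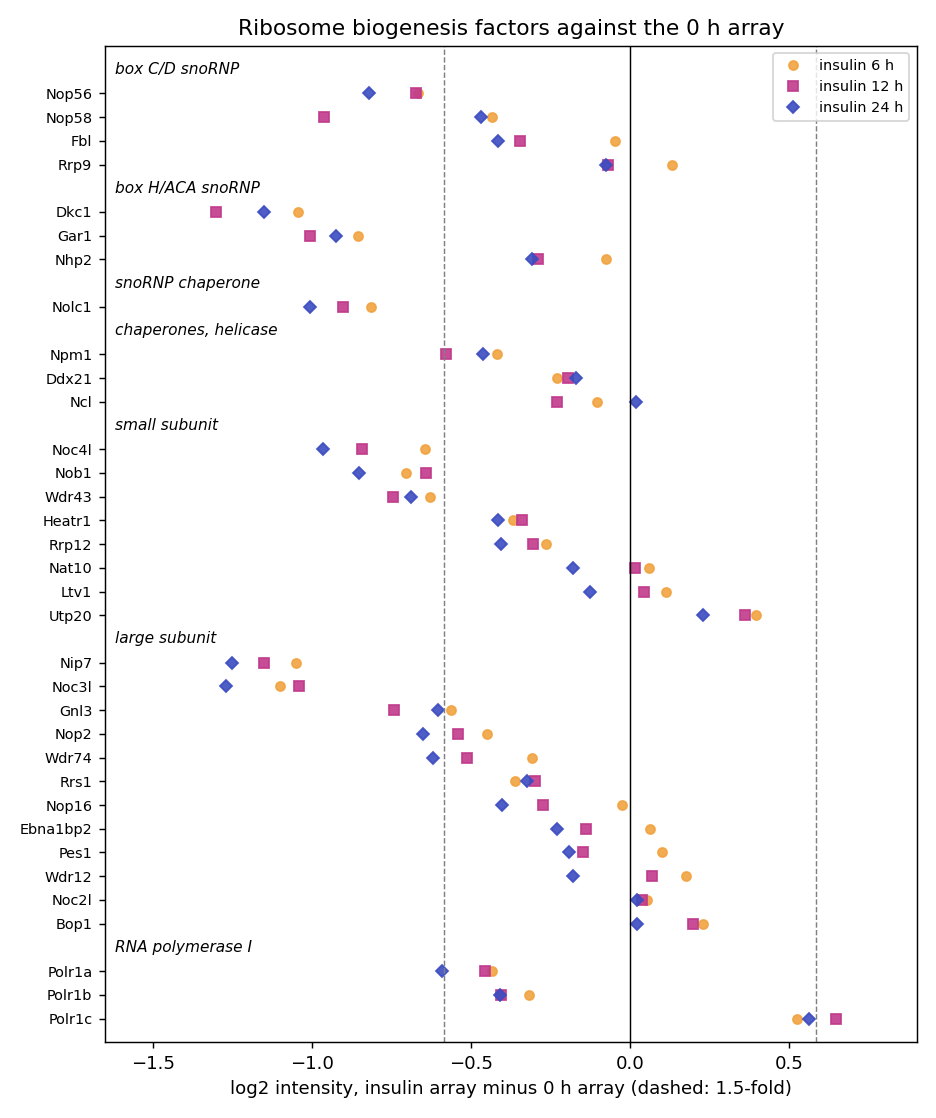
Log2 intensity of the insulin array minus that of the 0 h array (horizontal axis) for each of 34 ribosome biogenesis factors, grouped by role, with 1 symbol for each insulin time and single arrays throughout. Dashed lines mark 1.5-fold; the points for Nip7, Noc3l and Dkc1 lie farthest to the left and those for Polr1c, by its brightest probe set, to the right of all others.

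Promoters of 4 factors that were lower on the insulin arrays are shown before the single genes, as the 250 bases before the start site in RefSeq on build GRCm38.p6, read along the gene. Of the 34 genes, 29 had an entry, and Fbl, Npm1, Rrp12, Bop1 and Rrs1 had none. Capitals mark CACGTG, the E-box that Myc and its partner Max bind, which reads the same on both strands, and CCGGAAG or its reverse complement CTTCCGG, a word bound by ETS-family factors. In the 4 promoters shown no match overlaps another. Nip7, Gar1 and Nolc1 are shown as the genes with an ETS word whose intensities were farthest below 0 h, and Nop2 as the one with an E-box. They lie at chr8:107056627-107056876 (plus strand), chr3:129831397-129831646 (minus strand), chr19:46075597-46075846 (plus strand) and chr6:125131633-125131882 (plus strand).
Nip7: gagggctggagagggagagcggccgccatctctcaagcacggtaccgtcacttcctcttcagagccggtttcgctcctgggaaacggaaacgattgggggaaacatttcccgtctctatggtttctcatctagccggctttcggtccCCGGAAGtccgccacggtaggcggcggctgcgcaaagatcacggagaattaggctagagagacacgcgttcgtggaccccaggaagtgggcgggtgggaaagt
Gar1: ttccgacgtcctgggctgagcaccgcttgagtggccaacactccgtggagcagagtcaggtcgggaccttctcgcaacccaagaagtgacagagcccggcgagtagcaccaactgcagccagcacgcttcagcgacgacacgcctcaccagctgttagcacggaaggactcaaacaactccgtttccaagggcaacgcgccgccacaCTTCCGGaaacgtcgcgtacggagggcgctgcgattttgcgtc
Nolc1: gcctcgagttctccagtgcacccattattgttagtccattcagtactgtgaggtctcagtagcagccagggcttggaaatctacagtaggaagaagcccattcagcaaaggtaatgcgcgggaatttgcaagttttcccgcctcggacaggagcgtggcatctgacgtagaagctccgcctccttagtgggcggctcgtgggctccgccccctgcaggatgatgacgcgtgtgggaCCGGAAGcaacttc
Nop2: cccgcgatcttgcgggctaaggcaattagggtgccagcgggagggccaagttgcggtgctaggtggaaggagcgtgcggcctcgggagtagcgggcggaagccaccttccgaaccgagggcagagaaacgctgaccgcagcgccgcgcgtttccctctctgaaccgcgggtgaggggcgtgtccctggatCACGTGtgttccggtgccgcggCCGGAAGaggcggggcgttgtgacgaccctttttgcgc

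The ETS word was present in 9 of 29 factors (31.0%), namely Gar1, Heatr1, Ltv1, Nhp2, Nip7, Nolc1, Nop2, Polr1c and Wdr74. Among all genes above the filter with an entry it was present in 15.6%, and among all 27025 genes with an entry in 7.83%. A longer list of ribosome biogenesis genes, described further below, held it in 31 of 105. Its holders had unlike values, since Nip7 and Nolc1 were at least 2-fold lower at 24 h while Ltv1 was close to 0 h. The E-box was present in 1 of 29 factors, 12 of 105 genes of the longer list and 9.96% of genes above the filter. In Nip7 the ETS word begins 103 bases before the start site, in Gar1 43 and in Nolc1 14. In Nop2 the E-box begins 60 and the ETS word 38 bases before it. These words were chosen after the intensities were known, and a match is a description of sequence only.

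The snoRNP genes of the H/ACA particle differed among themselves. Dkc1 encodes dyskerin, its pseudouridine synthase, and had intensities of 1061, 514, 430.2 and 478 at 0, 6, 12 and 24 h, which is 2.06, 2.47 and 2.22-fold lower. One other probe set had 504, 251, 196 and 212, and the last had 474, 225, 235 and 257. Every insulin value of each Dkc1 probe set thus lay well below its control value. Gar1, a glycine- and arginine-rich protein of the finished particle, had 1589, 878, 792 and 838, or 1.81, 2.01 and 1.90-fold lower. Nhp2, a core protein beside dyskerin, had 2348, 2229.6, 1923 and 1896 and was 1.05, 1.22 and 1.24-fold lower, so by this probe set its 6 h value was close to the control. Its other probe set had 1439.9, 1242, 991 and 1001 and was 1.16, 1.45 and 1.44-fold lower. A further core protein, Nop10, named here after its values were seen, had 4528, 4515, 4656 and 4566. Naf1, the assembly factor that Gar1 replaces, had 1891, 927, 878 and 822, which is 2.04, 2.15 and 2.30-fold lower. Dkc1, Gar1 and Naf1 were therefore near 2-fold lower on the insulin arrays, while Nop10 was close to the control on each of them.

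Box C/D genes were likewise uneven. Nop56, a scaffold protein of the particle, had 1247, 786, 782 and 706 and was 1.59, 1.59 and 1.77-fold lower. Its second probe set pointed the same way with 1005, 558, 505 and 470.0. The paralogous scaffold Nop58 had 712, 527, 366 and 514, which is 1.35, 1.95 and 1.39-fold lower, and its lowest value was that of the 12 h array. Fbl, the methyltransferase fibrillarin, had 2263, 2190.5, 1779 and 1697. Its value at 6 h was close to the control, and the later values were 1.27 and 1.33-fold lower. Rrp9, a protein particular to the snoRNP that starts small subunit processing, had 567, 621, 539.5 and 538 and lay close to the control on all insulin arrays. Nolc1, a nucleolar phosphoprotein that chaperones snoRNPs of both kinds, had 916, 522, 489.9 and 456 and was 1.76, 1.87 and 2.01-fold lower. One other probe set had 293, 143, 129 and 113, and the last had 163, 130.2, 117 and 125, so all 3 were highest at 0 h. Over the 8 snoRNP genes together the medians were -0.55, -0.79 and -0.65. At least 1.5-fold lower were 4, 5 and 4 of 8, beside 12.8%, 13.3% and 13.3% of all genes.

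By their brightest probe sets the abundant nucleolar proteins with chaperone or helicase activity were nearer to the control than the snoRNP genes together. Their medians were -0.23, -0.23 and -0.17. With the median of each gene's chromosome removed, as described further below, they were -0.35, -0.50 and -0.29. Npm1, the histone and ribosome chaperone nucleophosmin, had 11399.6, 8539, 7633 and 8266, which is 1.34, 1.49 and 1.38-fold lower. Its other probe set had 11762, 7168, 5447 and 6163 and was 1.64, 2.16 and 1.91-fold lower. Ncl, the RNA-binding protein nucleolin, had 4426, 4116, 3776 and 4483 by its brightest probe set, and the 24 h value was nearly equal to that at 0 h (0.018 log2). A second Ncl probe set had 1844, 1345, 999.7 and 1221, lower on all insulin arrays. A further one had 784, 627, 621 and 746, highest at 0 h. Another Ncl probe set had 204, 216, 172 and 180.2, higher than at 0 h on the 6 h array alone. Ddx21, an RNA helicase that acts in polymerase I transcription and rRNA processing, had 460.3, 393, 402 and 409. The other Ddx21 probe set pointed up, with 180.0, 245, 203 and 208. The direction for Ncl at 6 h and for Ddx21 therefore depended on the probe set. At 24 h Ncl was level by its brightest probe set and below the control by the others above the filter.

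Small subunit factors formed a range, with 24 h log2 differences from 0 h between -0.96 for Noc4l and 0.23 for Utp20. At each of 6, 12 and 24 h, 3 of 8 were at least 1.5-fold lower, beside 12.8%, 13.3% and 13.3% of all genes. The medians were -0.32, -0.32 and -0.41. Noc4l, which works with Nop14 in the nucleolus, had 947, 606, 528 and 485 and was 1.56, 1.79 and 1.95-fold lower. All 4 of its probe sets were lower on each insulin array, the other 3 by between 1.62 and 1.81-fold at 24 h. Nob1, the endonuclease that makes the last cut of the small subunit rRNA, had 877, 538, 562 and 486, which is 1.63, 1.56 and 1.80-fold lower. Wdr43, a subunit of the processome that loads first on the precursor, had 835, 540.2, 498 and 518 and was 1.55, 1.68 and 1.61-fold lower. These 3 genes had their highest value at 0 h. With the median of each gene's chromosome removed, as described further below, 0, 2 and 1 of the 8 were at least 1.5-fold lower. The shares of all genes with a chromosome were then 12.0%, 13.6% and 12.3%. Noc4l, Nob1 and Wdr43 fell short at 6 h, Nob1 at 12 h and Nob1 and Wdr43 at 24 h.

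The other 5 small subunit factors stayed within 1.5-fold of the control by their brightest probe sets. Heatr1, a large processome scaffold also needed for precursor transcription, had 581, 449.8, 459 and 436. Rrp12, which takes part in the export of pre-ribosomes, had 175, 145, 142 and 132. Both were lower on each insulin array, by at most 1.33-fold. Nat10, the RNA acetyltransferase that modifies small subunit rRNA, had 317, 330.5, 321 and 279.8. Ltv1, an assembly factor released late in small subunit maturation, had 948, 1025, 978 and 868. Nat10 and Ltv1 were slightly above the control at 6 and 12 h and slightly below it at 24 h. Utp20, a very large HEAT-repeat protein of the processome, was alone among the 8 in being higher on all insulin arrays, with 589, 774, 756 and 690.0, which is 1.31, 1.28 and 1.17-fold higher.

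The large subunit list held genes far below the control and several that were level. Of 12 measured, 2, 3 and 5 were at least 1.5-fold lower, beside 12.8%, 13.3% and 13.3% of all genes, so the 6 h count was near that share. At least 1.5-fold higher were 0, 0 and 0, beside 18.6%, 20.5% and 19.5% of all genes. The medians were -0.17, -0.29 and -0.36. Noc3l, whose yeast counterpart pairs with Noc2 on precursors of the large subunit, had 480.5, 224, 234 and 199 and was 2.15, 2.06 and 2.41-fold lower. Nip7, an RNA-binding factor, had 2451, 1182, 1103 and 1029 and was 2.07, 2.22 and 2.38-fold lower. The second Noc3l probe set had 167, 111, 103 and 102. That of Nip7 had 148, 112, 87.3 and 97.8, so both probe sets of each gene were highest at 0 h. Gnl3, the GTPase nucleostemin, had 1950.5, 1321, 1165 and 1283, which is 1.48, 1.67 and 1.52-fold lower. Nop2, an rRNA methyltransferase, had 763, 558, 524 and 486. Wdr74, a partner of the ATPase Nvl, had 1024, 826, 717 and 667. For Nop2 and Wdr74 each later array was lower than the one before, and of the 3 insulin arrays only that of 24 h lay past 1.5-fold.

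Bop1, Pes1 and Wdr12, which form one complex needed for large subunit rRNA processing, were all close to the control by their brightest probe sets. Bop1 had 663, 778, 761 and 674. Pes1 had 931, 999, 839.7 and 815. Wdr12 had 434, 491, 455 and 384. On the 6 h array all 3 were slightly above the control, and by 24 h Bop1 was nearly equal to the control. The second Pes1 probe set differed, with 307, 194, 166 and 168, or 1.58, 1.85 and 1.83-fold lower. Rrs1, which helps to bring the small ribosomal RNA of the large subunit into the particle, had 1438, 1120.0, 1169.8 and 1149, and its other probe set had 1048, 784, 735 and 733. Nop16 had 637, 626, 527 and 482. Ebna1bp2, whose yeast counterpart acts in large subunit processing, had 1016, 1059.8, 923 and 866. Both were close to the control at 6 h and lowest at 24 h, as was the second Ebna1bp2 probe set with 155, 149, 122 and 119. Noc2l, also described as an inhibitor of histone acetyltransferases, had 199, 207, 204 and 202 by the brightest probe set and 142, 94.5, 86.7 and 93.8 by the other, so that a level gene by one was 1.51, 1.64 and 1.52-fold lower by the other.

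RNA polymerase I genes were mixed, and the sign of 2 of the 3 depended on the probe set. Polr1a, the largest subunit, had 474, 350.3, 345 and 314 and was 1.35, 1.37 and 1.51-fold lower. One further probe set above the filter had 182, 121, 100.04 and 75.9, lower on each insulin array. Another had 115, 134, 125 and 130.3, higher on each of them. Polr1b, the second largest subunit, had 294, 236, 222 and 221, which is 1.247, 1.33 and 1.33-fold lower. Polr1c, a subunit shared with RNA polymerase III, had 875, 1258, 1371 and 1292 by its brightest probe set and was 1.44, 1.57 and 1.48-fold higher. It was the gene that reached 1.5-fold higher at 12 h. Its other probe set had 1573, 915, 857 and 854 and was 1.72, 1.83 and 1.84-fold lower. The first carries an s in its name, which the maker gives to sets whose probes match several transcripts, and the second does not. The brightest probe sets of Nop56, Fbl, Nhp2 and Gar1 carry the s too, and Gar1 has no other. Since the Polr1c probe sets differ in sign, no direction is given for that gene. For Polr1a the brightest and the first further probe set were lower on each insulin array, and the other was higher.

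**Figure D2:**
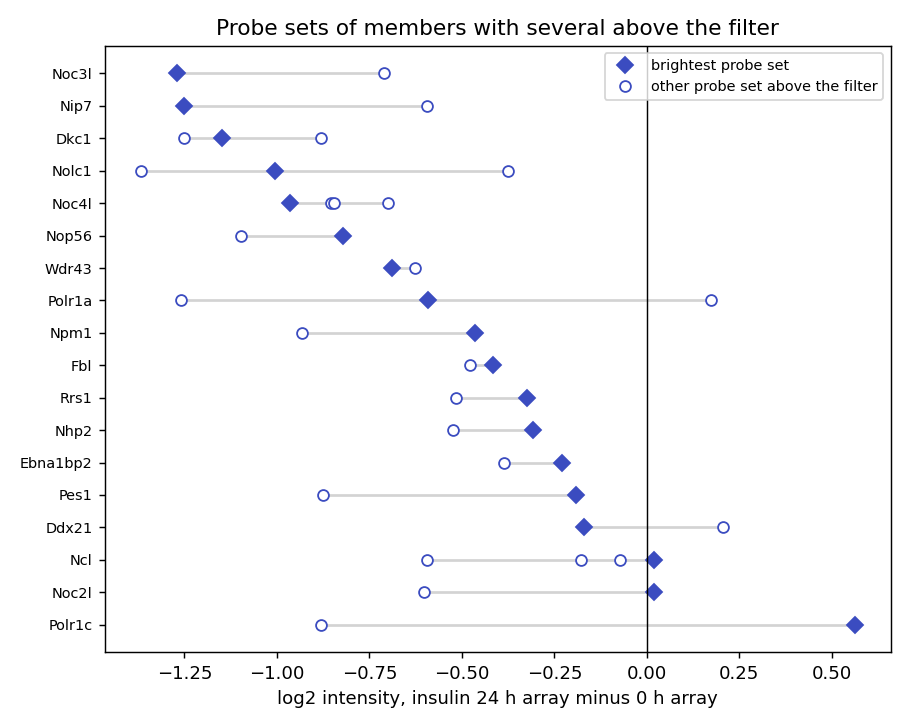
Log2 intensity of the 24 h array minus the 0 h array (horizontal axis) for the 18 factors with several probe sets above the brightness filter, filled for the brightest and open for the others, each from single arrays. Polr1c spans -0.88 to 0.56, and most open points lie to the left of 0.

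The further probe sets were on the whole farther below the control than the brightest ones. There were 25 of them above the filter, from 18 factors, and 22, 23 and 23 of 25 were lower than at 0 h at 6, 12 and 24 h. Their medians were -0.58, -0.70 and -0.63, against -0.39, -0.40 and -0.44 for the brightest probe sets of the same genes. At least 1.5-fold lower were 12, 15 and 16 of 25, and none was 1.5-fold higher. Of all genes, by their brightest probe sets, 12.8%, 13.3% and 13.3% were that much lower and 18.6%, 20.5% and 19.5% higher. Lower by any amount were 49.4%, 47.4% and 50.0% of all genes. A sign opposite to the brightest probe set was seen in 7, 4 and 7 of the 25. Probe sets of a gene share its RNA and are not replicates.

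Between the insulin arrays the differences were small, and most factors were lower at the later times. By its brightest probe set no factor was 1.5-fold apart between any pair of insulin arrays. Of the 25 further probe sets 1 was, the Polr1a set with 75.9 at 24 h and 121 at 6 h. Of all genes, 0.334% were 1.5-fold lower and 1.14% higher on the 12 h than on the 6 h array. The shares were 0.120% lower and 1.68% higher for 24 h against 6 h, and 0.103% lower and 0.103% higher for 24 h against 12 h. Lower by any amount at 24 h than at 6 h were 30 of 34, beside 50.7% of all genes, and the medians were -0.16 for the factors and -0.00226 for all genes. At 12 h against 6 h, 28 of 34 were lower, beside 42.7% of all genes, with medians of -0.10 and 0.03. At 24 h against 12 h, 26 were lower, beside 58.4% of all genes, with medians of -0.09 and -0.03. This last direction depended on the probe set: of the 25 further probe sets 14 were higher at 24 h than at 12 h, and by the second brightest probe set the median was 0.0152 over 18 factors. For 24 h against 6 h and for 12 h against 6 h, 22 and 22 of the 25 were lower. By brightest probe sets, of the 3 insulin arrays, that of 6 h held the highest value of 27 of 34 factors and of 32.4% of all genes. That of 24 h held the lowest value of 24 factors and of 36.7% of all genes.

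**Figure D3:**
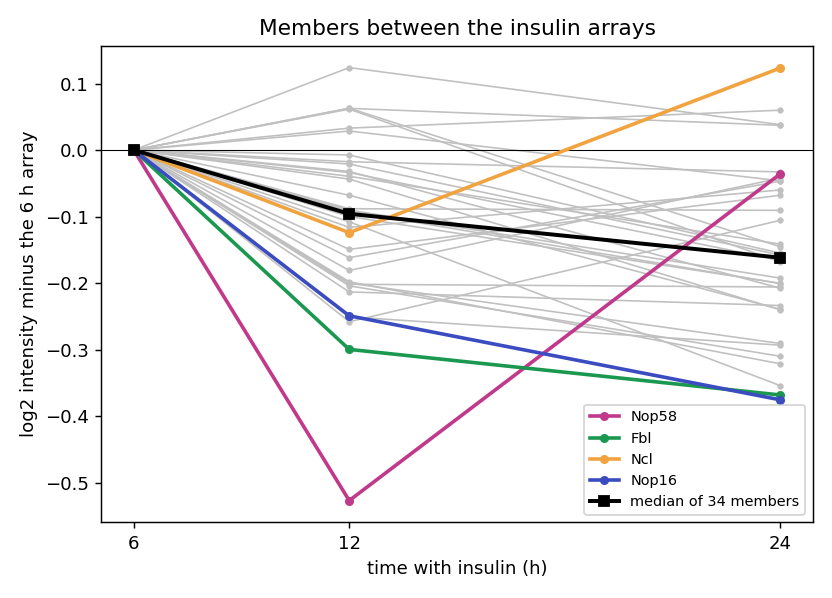
Log2 intensity minus that of the 6 h array (vertical axis) against time with insulin (6, 12 and 24 h) for each of 34 factors in grey, with 4 named genes in colour and the median in black, from single arrays. The median lies at -0.10 at 12 h and -0.16 at 24 h, and Nop58 has the lowest point at 12 h.

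Nop16, Fbl, Wdr12 and Noc4l were farthest down between 24 h and 6 h. Nop16 differed by -0.38 log2, Fbl by -0.37, Wdr12 by -0.35 and Noc4l by -0.32. For Dkc1 the difference was -0.11 and for Gar1 -0.068. Higher at 24 h than at 6 h were Ncl (0.12), Ddx21 (0.0599), Polr1c (0.0382) and Rrs1 (0.0372), each by its brightest probe set. All 8 small subunit factors and 11 of 12 large subunit factors were lower at 24 h than at 6 h, beside 50.7% of all genes. Nop58 stood out by its 12 h value, which was -0.53 log2 from that at 6 h, with the 24 h value 0.49 above it. Over all genes the absolute difference between the 12 h and the 6 h array had a median of 0.0998 and 5% of genes exceeded 0.39.

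A longer list of other ribosome biogenesis genes lay in the same range. Of 131 names 129 were measured and 126 were above the filter. Of these, 27, 30 and 38 were at least 1.5-fold lower and 2, 1 and 2 higher at 6, 12 and 24 h, beside 12.8%, 13.3% and 13.3% of all genes lower and 18.6%, 20.5% and 19.5% higher. The medians were -0.25, -0.28 and -0.36. Between 24 h and 6 h, 102 of 126 were lower by any amount, beside 50.7% of all genes, with a median of -0.11. Genes of rRNA cutting and trimming had medians of -0.28, -0.46 and -0.42 from the control, those of the small subunit -0.29, -0.36 and -0.39 and those of the large subunit -0.15, -0.21 and -0.31. Other polymerase I genes had -0.31, -0.27 and -0.34 and other snoRNP genes -0.02, -0.23 and -0.19, so the snoRNP genes lay nearest to the control at 6 h.

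**Figure D4:**
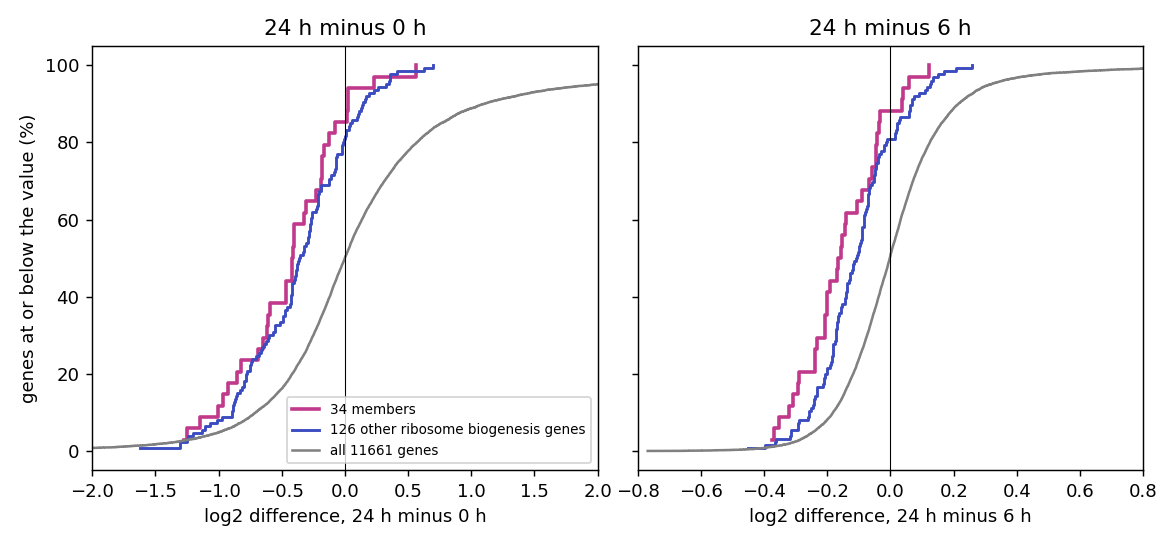
Share of genes (vertical axis, %) at or below each log2 difference (horizontal axis) between the 24 h and 0 h arrays (left) and the 24 h and 6 h arrays (right) for 34 factors, 126 other ribosome biogenesis genes and all 11661 genes above the filter. In both panels the lines of the factors and of the longer list lie to the left of the line of all genes over most of the range. The horizontal scale is finer at right.

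The 2 lowest and 2 highest genes of each role in the longer list were read in full. Rpf1, a large subunit assembly factor, had 865, 331, 281 and 280.3 and was the lowest of all. Rsl1d1, a nucleolar protein with a ribosomal protein fold, had 2364, 1401, 1196 and 1126. Both were highest at 0 h. Rrp1, a nucleolar large subunit factor, had 1155, 1574, 1552 and 1536. Nvl, a nucleolar ATPase, had 123, 201, 183 and 189.7. These 2 were lowest at 0 h. In the small subunit group Utp4, a processome subunit, had 2653, 1268, 1136 and 1073. Tsr2, a chaperone of one small subunit protein, had 1238, 547, 549.6 and 520.4, and both were over 2-fold lower on every insulin array. Utp11, also of the processome, had 1249, 1583, 1532 and 1502. Rrp7a, another processome protein, had 606, 758, 726 and 655. Both ends thus held processome subunits. With chromosome medians removed, as described further below, Utp11 became 0.037, -0.074 and -0.055 log2, and Rrp7a 0.50, 0.42 and 0.33. Nvl then became 0.46, 0.30 and 0.36, and Rrp1 0.33, 0.28 and 0.29.

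For RNA cutting, Rpp40, a subunit of RNases P and MRP, had 445, 212, 188 and 180.3. Exosc8, of the exosome ring, had 1921, 964, 749 and 814. Both were highest at 0 h. Pop4, of the same RNases as Rpp40, had 274, 384, 359 and 344. Exosc9, of the same ring as Exosc8, had 894, 1216, 1132 and 1142. Genes of one RNase or exosome thus lay on both sides of the control. In the polymerase I group Ttf1, the termination factor, had 460.3, 227, 219 and 248. Taf1b, of the promoter selectivity factor, had 281, 146, 149.6 and 162. Both were lower on every insulin array. The polymerase subunit Polr1e had 163, 292, 304 and 265. Cd3eap, another subunit, had 117, 148, 166 and 150.2. The 2 subunits were higher on every insulin array. Among snoRNP assembly genes, Ruvbl1, an ATPase of the chaperone complex that builds box C/D particles, had 748, 585, 618 and 538, next to Naf1 as given above. Pih1d1, of the same chaperone complex, had 578, 726, 732 and 736. Tgs1, which hypermethylates snoRNA caps, had 645, 676, 704 and 720.5. Ruvbl1 was highest at 0 h, and Pih1d1 and Tgs1 were lowest there. With chromosome medians removed, Tgs1 became -0.24, -0.24 and -0.16 log2, and Pih1d1 0.15, 0.098 and 0.14. In the same way Polr1e became 0.53, 0.53 and 0.38, and Cd3eap 0.15, 0.26 and 0.15. Pop4 became 0.30, 0.15 and 0.12, and Exosc9 0.68, 0.55 and 0.57.

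Myc itself, which drives many of these genes in other cells, had 503, 361, 403 and 332. Among its network Max, the binding partner, had 99.2, 95.3, 85.0 and 78.9. Mycn had 168, 169, 152 and 153. Mxd1, an antagonist that competes for Max, had 68.7, 134, 138 and 141 and was 1.94, 2.01 and 2.04-fold higher. Myc was thus highest at 0 h and Mxd1 lowest there. Of the other antagonists, Mxd3 had 126, 147, 130.3 and 154. Mxd4 had 1830.0, 2078, 2281 and 2267, lowest at 0 h. Mxi1 had 503, 505, 429.7 and 427. Mnt had 830.2, 644, 654 and 634, highest at 0 h. Of the remaining genes, Mga had 216, 295, 315 and 343, higher on every insulin array. Mlx had 447, 345, 345 and 306, lower on every insulin array. Mycl was below the filter with 62.5, 60.1, 54.6 and 65.0. Of 10 network genes above the filter, 0, 0 and 1 were at least 1.5-fold lower and 1, 1 and 2 higher at the 3 times, beside 12.8%, 13.3% and 13.3% of all genes lower and 18.6%, 20.5% and 19.5% higher.

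Cell cycle genes, read beside these factors, had lower medians against the control. Of 13 S phase genes 8, 10 and 10 were at least 1.5-fold lower than at 0 h at 6, 12 and 24 h, beside 12.8%, 13.3% and 13.3% of all genes, with medians of -1.28, -1.57 and -1.44. Of 12 mitosis genes 7, 12 and 6 were, with medians of -0.68, -1.20 and -0.61. Pcna, the sliding clamp of DNA replication, had 6569.9, 3635, 2817 and 2909, and Mcm7, of the replicative helicase, had 3805, 1558, 1285 and 1401. Between 12 h and 6 h the mitosis median was -0.57 and between 24 h and 12 h it was 0.48. The part of the cell cycle in the values of the factors was not tested.

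Because whole chromosomes differed from the control, the factors were also read with the median of their chromosome removed. The counts at least 1.5-fold lower were then 9, 12 and 11 of 34, beside 12.0%, 13.6% and 12.3% of all genes with a chromosome, and the medians -0.34, -0.43 and -0.44. Of the 9, 11 and 13 factors lower before, 6, 10 and 8 were among them. At 6 h Nob1, Noc4l and Wdr43 left and Gnl3, Nop58 and Rrs1 joined. At 12 h Nob1 left and Fbl and Npm1 joined. At 24 h Nob1, Nop2, Polr1a, Wdr43 and Wdr74 left and Fbl, Nop58 and Rrs1 joined. Of the 8 snoRNP genes 5, 6 and 6 were then lower, of the 12 large subunit genes 4, 3 and 4 and of the 3 polymerase I genes 0, 0 and 0. Chromosome 19, with a median of -0.21 at 24 h, carries Nolc1, Noc3l, Rrp12 and Wdr74, whose 24 h differences became -0.80, -1.06, -0.20 and -0.41. Nip7 and Nob1 lie on chromosome 8 and became -0.98 and -0.58. On chromosome 1, where the median was 0.27, Nop58, Rrs1, Wdr12 and Ncl became -0.74, -0.59, -0.45 and -0.25. On chromosome 4, where it was 0.32, Noc2l went from 0.0205 to -0.30 and Ebna1bp2 from -0.23 to -0.55. Gar1, on chromosome 3, went from -0.92 to -0.71. Before the medians were removed, the 24 h differences had been -1.01 for Nolc1, -1.27 for Noc3l, -1.25 for Nip7 and -0.41 for Rrp12. Dkc1 is X-linked. Without it, and with no medians removed, 8, 10 and 12 of 33 were at least 1.5-fold lower, beside 12.8%, 13.3% and 13.3% of all genes.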

How the data were processed

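RNA was labelled for a 3′ in vitro transcription array, 1 array in each of 4 groups. The authors deposited a linear intensity for each probe set on each array. RMA, which corrects background, normalizes and summarises on the log scale, is named per the submitters' processing notes, with software and build not given in the sources used here. RMA compresses differences of dim probe sets. Here log2 was taken, and array medians lay between 65.0 and 65.7. Of 45037 non-control probe sets, 34945 carried 1 gene symbol in the platform annotation, which can be old, 932 several and 9160 none here. For a gene with several probe sets the one of highest mean log2 over the arrays was taken, and genes below the median of non-control probe sets were left out. Older listed symbols were matched through Entrez IDs. A RefSeq table of GRCm38.p6 gave chromosomes for 11644 of 11661 kept genes.

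With single arrays there is no test. Log2 differences of arrays, counts past 1.5-fold and medians were set beside those of all kept genes. The counting was tested on simulated data. Members and lists were chosen with earlier results of these data known. Every member is named; of the longer list, the 2 lowest and 2 highest genes per role by mean difference from 0 h; every Myc network gene; of the cell cycle list the 2 brightest. Alternatives were fold thresholds, brightness filters, normalizations, probe set rules, chromosome medians and the mean. Python 3.11.15, numpy 2.4.6, pandas 2.3.3, statsmodels 0.14.6 and matplotlib 3.10.9 were used.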

Additional observations from a re-analysis of the deposited data

How the results depend on the processing

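Over 18 medians and counts, 210 alternative values were computed, but at least 44 could not differ. All 34 factors passed every brightness filter, and a count of 0 at 1.5-fold is 0 at 2-fold. A count of 0 also stays 0 without the X-linked Dkc1, so some of the other 166 were fixed in advance too. Of the 166, 26 moved and 1 changed sign. A median counted as moved when it shifted by more than 0.0877 log2, the median absolute difference over all genes between the 24 h and 12 h arrays, and a count when it changed by over 1.5 times. In every alternative run the medians against 0 h were below 0. At a smaller fold threshold (0.32 log2) 16, 18 and 21 factors were lower and 2, 2 and 1 higher at 6, 12 and 24 h than at 0 h, beside 24.3%, 24.5% and 25.1% of all genes lower and 28.8%, 31.2% and 29.6% higher. At 2-fold 3, 4 and 4 were lower and 0, 0 and 0 higher, beside 4.62%, 5.31% and 4.82% and 10.6%, 11.7% and 11.1% of all genes. Between insulin arrays at the smaller threshold, 1 was lower at 12 h than at 6 h (292 of all 11661 genes), 3 were lower at 24 h than at 6 h (220) and 1 was higher at 24 h than at 12 h (202). The second brightest probe set, an alternative chosen after seeing the data, gave medians of -0.59, -0.74 and -0.61 from 0 h over 18 factors. At least 1.5-fold lower were 9, 12 and 12 of 18, and 0 were higher at 12 h. Of all genes, by their brightest probe sets, 12.8%, 13.3% and 13.3% were that much lower, and 20.5% higher at 12 h. With the second brightest probe set the median of 24 h minus 12 h was 0.0152, which differs in sign. The cause was not tested. At 12 h the median was -0.50 with probe sets averaged and -0.45 with suffixed probe sets left out, and both gave 0 factors 1.5-fold higher. Centring arrays on the median of kept genes shifted all differences from 0 h by -0.0787, -0.129 and -0.0975, giving medians of -0.47 at 12 h and -0.51 at 24 h, and 0 factors higher at 12 h. With chromosome medians removed, 1 factor, Polr1c by its brightest probe set, was 1.5-fold higher at 6 h and 1 at 24 h. Before removal 18.6% and 19.5% of all genes were that much higher, and the share after removal was not computed. The other Polr1c probe set was lower on each insulin array, so no direction is given for that gene. No paired analysis was possible because each group holds 1 array. Signal over background limits dim probe sets, and all 34 factors were above the filter.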
